A study of Mus musculus with 14 samples.

Results

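Fabp1, Fabp4, Fabp5, Lpl and Cd36 were described in RNA-seq of macrophage-enriched cells sorted from mouse lungs after bleomycin injury. These genes encode 3 fatty acid-binding proteins, a lipase and a fatty acid receptor. They were chosen by name for their role in taking up and carrying fatty acids, and make up 5 of the 43432 genes in the deposited table. The rule used no measured value, but the choice was made with earlier results of these data known.

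The cells came from male mice of the strain 129S1, aged 10 to 12 weeks, given either bleomycin (3 U/k, as labelled) or water through the trachea. Bleomycin is a DNA-damaging drug that injures the lung and is used to model fibrosis. All 14 libraries were made from cells carrying SiglecF and CD11c, which together mark alveolar macrophages, the resident phagocytes of the air spaces. The cells were sorted into fractions with high or low MHC class II (MHCII), the surface protein that presents peptides to helper T cells. The groups were MHCII-low and MHCII-high cells 2 weeks after bleomycin, both fractions 4 weeks after bleomycin (3 libraries each), and the MHCII-low fraction from control mice given water (2 libraries, replicates 1 and 3). MHCII-high cells of controls were not analysed here. Cells were sorted on either of 2 instruments, and which library came from which is not labelled. The labels do not say whether replicates came from separate animals, so p-values measure only the spread between these libraries.

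Recovered depth ranged from 15106415 to 88059578 reads per library, and the mitochondrial ribosomal RNAs took 3.12% to 28.99% of them. The 2-week MHCII-high libraries lay at 22.51% to 26.25%, above the 2-week MHCII-low libraries at 3.42% to 18.32%. The third 4-week MHCII-high library stood apart from the rest on the second principal component, at 146.4 against -73.5 to 44.7 in the others. All 8 alveolar macrophage markers were detected in every group, and their summed level was 329768 to 576539 normalized counts. Most of that sum came from Chil3 and Mrc1, so it says little of the other markers. Normalized counts are gene counts divided by a scale factor per library, and are the unit of all levels below unless a length is named.

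Fatty acids reach a cell mainly bound to albumin or inside lipoproteins. Lipoprotein lipase, the product of Lpl, frees fatty acids from lipoprotein triglyceride. CD36 is a scavenger receptor that takes up fatty acids and oxidized lipoprotein at the cell surface, and the FABPs carry fatty acids through the cytosol. Alveolar macrophages clear and break down the lipids of lung surfactant. They depend on the nuclear receptor PPARG, which binds DNA with a retinoid X receptor partner at direct repeats of the letters AGGTCA spaced by 1 base. Fabp1, Fabp4, Lpl and Cd36 are textbook targets of PPAR receptors.

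Sequence is shown for Fabp1 and Cd36 because RefSeq promoter windows (GRCm38.p6, 250 bases before to 50 after each start) were matched for these 2 of the 5 genes. The Cd36 stretch covers the 250 bases before its RefSeq start, chr5:17835897-17836146 on the reverse strand. That start is internal, so the stretch lies within the deposited span of the gene and not upstream of all its transcripts. The Fabp1 stretch covers 198 bases on the forward strand, chr6:71199629-71199826, and ends where the annotated first exon begins. Capitals mark AGGTCA on either strand and a spaced pair on either strand, made of AGGNCA, 1 base of any kind and AGGNCA again. The 2 motifs can overlap.
Cd36: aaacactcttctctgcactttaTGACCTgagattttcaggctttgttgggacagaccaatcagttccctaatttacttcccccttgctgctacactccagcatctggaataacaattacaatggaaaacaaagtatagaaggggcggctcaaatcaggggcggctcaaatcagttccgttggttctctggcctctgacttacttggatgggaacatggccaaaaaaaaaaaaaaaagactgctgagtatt
Fabp1: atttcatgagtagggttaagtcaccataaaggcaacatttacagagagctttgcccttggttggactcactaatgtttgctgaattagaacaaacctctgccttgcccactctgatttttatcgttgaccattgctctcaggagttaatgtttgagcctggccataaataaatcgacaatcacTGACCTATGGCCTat
The Fabp1 stretch holds the spaced pair on the reverse strand, TGACCTATGGCCT, at position -67 from the RefSeq start. A further AGGTCA of the Fabp1 window, at position -9, lies past the end of the printed stretch. The spaced pair occurs in 125 of 32851 RefSeq promoter windows (0.381%). The Cd36 stretch holds a single AGGTCA, at position -228, a word found in 5340 of the same windows (16.3%). A match of letters is a description of the sequence and not a measured binding site.

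Lpl was by far the most abundant of the 5 transcripts. It ranked at position 30 of all genes by its median over libraries, against 848 for Cd36, 4783 for Fabp4, 5072 for Fabp5 and 5108 for Fabp1. Per kilobase of its main mRNA, Lpl reached 22475 ± 6386 normalized counts (SD, n = 2) in controls and 17817 ± 1599 (SD, n = 3) in 2-week MHCII-high cells. Cd36 reached 4192 ± 961 per kilobase in controls, Fabp1 2604 ± 36.3, Fabp4 1466 ± 436 and Fabp5 653 ± 21. In 2-week MHCII-high cells Fabp1 had the lowest mean of the 3 FABPs, at 313 ± 67.9 per kilobase (SD, n = 3). Fabp5 at 1592 ± 614 and Fabp4 at 1514 ± 337 differed there by less than the spread between replicates. The lengths matter for Fabp4 and Fabp5, whose deposited exon lengths of 4489 and 3567 bases include retained-intron transcripts, while their mRNAs are 896 and 987 bases long. Per kilobase of deposited exon length, the 2-week MHCII-high means were 313 for Fabp1, 302 for Fabp4 and 440 for Fabp5. The order of the FABPs thus depends on the length used.

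**Figure D1:**
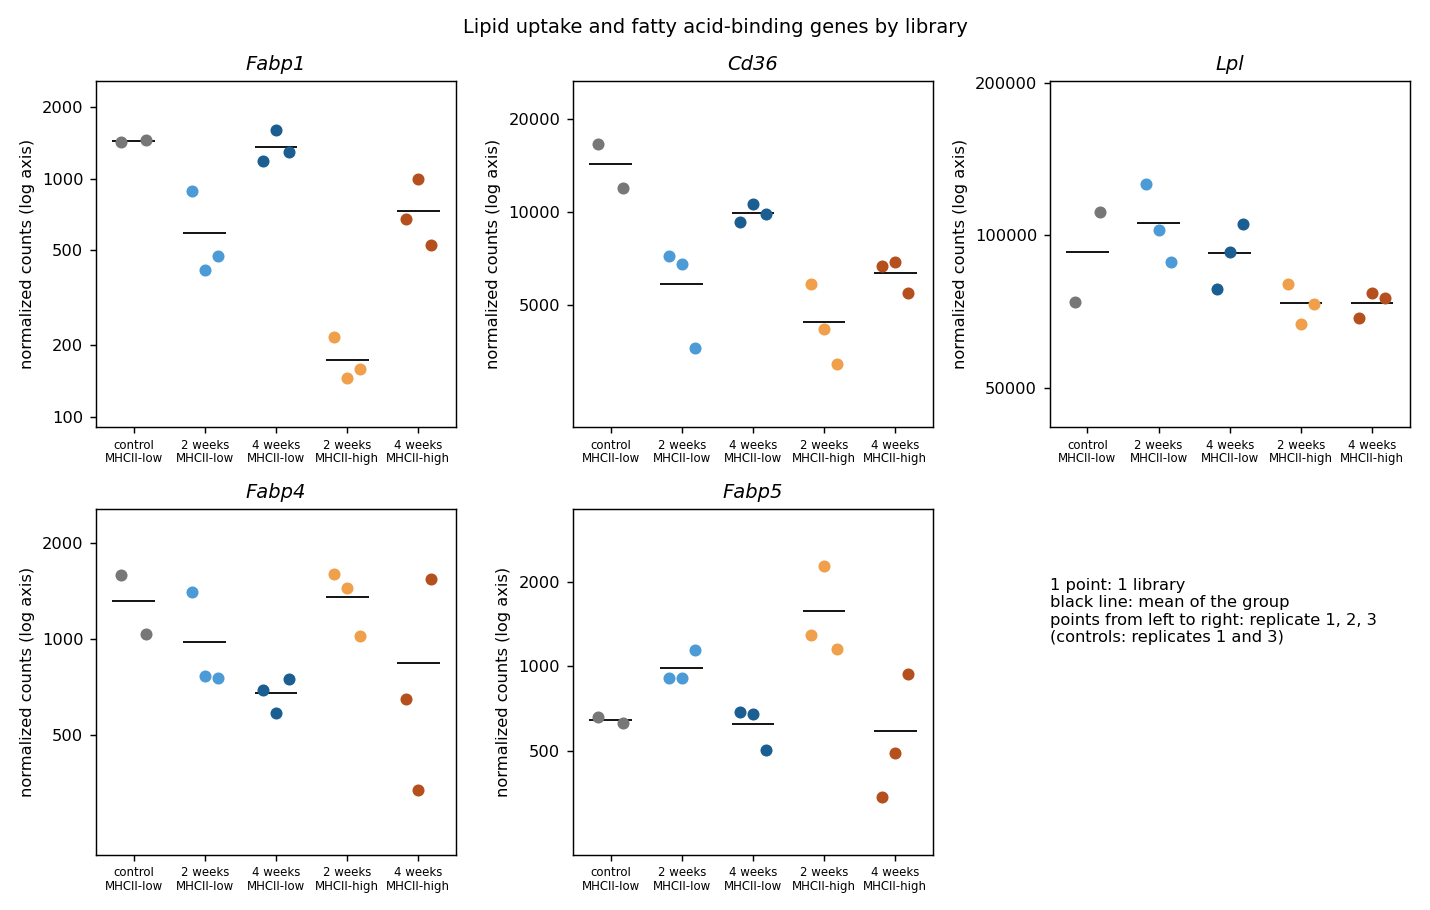
Normalized counts (log axis) of each gene in the 14 libraries, by group; each point is a library and the black line is the group mean. Fabp1 lies lowest in the 3 MHCII-high libraries of week 2 (145 to 215.6), and Cd36 lies highest in the 2 controls (11939 and 16560.4).

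Lpl (chromosome 8, 68880491 to 68907448, forward strand; GRCm38 throughout) varied least of the 5 genes, by 1.88-fold between its lowest and highest library. The control libraries held 73903.4 and 111065 normalized counts of Lpl. MHCII-low libraries held 125980.4, 102246.3 and 88503.1 at 2 weeks and 78179.4, 92686.8 and 105280.2 at 4 weeks. MHCII-high libraries held 80030.5, 66877.2 and 73040.5 at 2 weeks and 68716, 76790.8 and 75060 at 4 weeks. Each MHCII-high library was below each MHCII-low library of its time point, and the controls spanned most of the range. Over both times the difference between MHCII-high and MHCII-low cells was -0.41 ± 0.13 (log2 ± standard error), which did not pass the threshold in limma (adjusted p = 0.057).

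That test was fitted to log2(normalized count + 1) of 17390 genes in all 14 libraries, and p-values were adjusted over all of these genes with a threshold of 0.05. A log2 fold change on this scale understates the change of low genes. The Lpl difference passed the threshold with TMM factors before limma (-0.48, adjusted p = 0.026), with edgeR (-0.49, 0.017) and with DESeq2 (-0.43, 0.011). With replicate numbers as a block in limma it passed too. It also passed without 2-week MHCII-low replicate 3 (adjusted p = 0.034) or without 4-week MHCII-low replicate 1 (0.033). Of 9 alternatives 6 passed and 3 did not (adjusted p up to 0.20). In 10 of 12 fits with 1 library left out the Lpl difference did not pass either (up to 0.15). Lpl did not differ detectably between weeks 2 and 4 in MHCII-high cells, where the 95% interval of the log2 difference was -0.38 to 0.39, nor between controls and MHCII-low cells at 4 weeks (-0.42 to 0.44).

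Cd36 (chromosome 5, 17781690 to 17888801, reverse strand) fell in MHCII-low cells 2 weeks after bleomycin. The controls held 16560.4 and 11939 normalized counts. The 2-week MHCII-low libraries held 7195.6, 6769.2 and 3623.6, all below both controls. Their mean was 2.43-fold lower, a log2 difference of -1.33 ± 0.26 (limma, adjusted p = 0.0062). Without control replicate 1 the difference was -1.09 and did not pass (adjusted p = 0.20), and it did not pass in a fit of these 2 groups alone (0.17).

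At 4 weeks the MHCII-low libraries held 9254.8, 10610 and 9866.3 normalized counts of Cd36, between the controls and the 2-week libraries with no overlap on either side. Neither step passed the threshold: the log2 difference was 0.82 ± 0.23 from week 2 (limma, adjusted p = 0.14) and -0.51 ± 0.26 from control (adjusted p = 0.83). Cd36 was lowest in the 2-week MHCII-high libraries, at 5834.7, 4184.4 and 3229.3, which overlapped the MHCII-low libraries of that week. The 4-week MHCII-high libraries held 6682.8, 6878.3 and 5464.9, all below the MHCII-low libraries of week 4. That 4-week difference was -0.65 ± 0.23 (limma, adjusted p = 0.17), and it passed with the GC trend removed (-0.83, 0.027).

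Over both times Cd36 was lower in MHCII-high than in MHCII-low cells by a log2 difference of -0.52 ± 0.16, which did not pass (limma, adjusted p = 0.060). The value passed with TMM factors (-0.58, adjusted p = 0.025), edgeR (-0.59, 0.027), DESeq2 (-0.53, 0.023) and after removal of the trend with GC content (-0.75, 0.0019). With replicate numbers as a block in limma it passed too. It also passed without 2-week MHCII-low replicate 3 (-0.68, 0.0051) or 2-week MHCII-high replicate 1 (-0.63, 0.028). Of 9 alternatives 5 passed and 4 did not (adjusted p up to 0.27). In 10 of 12 fits with 1 library left out the Cd36 difference did not pass either (up to 0.17). The order of the group means of Cd36 was control, 4-week MHCII-low, 4-week MHCII-high, 2-week MHCII-low and 2-week MHCII-high. Neighbours overlapped from 4-week MHCII-high downwards.

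Fabp1 (chromosome 6, 71199827 to 71205023, forward strand), the FABP first described in liver, had the widest range of the members, 11.1-fold between its lowest and highest library. The controls held 1425.7 and 1454.1 normalized counts. MHCII-low libraries held 890.5, 412.4 and 473.5 at 2 weeks, all below the controls, and 1182.6, 1604.9 and 1294.3 at 4 weeks, on both sides of them. MHCII-high libraries held 215.6, 145 and 158.1 at 2 weeks, below every other library of the study. At 4 weeks they held 676.4, 994.7 and 525.8, below each MHCII-low library of that week.

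Fabp1 was lower in MHCII-high than in MHCII-low cells. At 2 weeks its mean was 3.42-fold lower, a log2 difference of -1.71 ± 0.30 (limma, adjusted p = 0.0021). It was the 1 member of 5 that passed, while 2.87% of all genes tested passed in that comparison. At 4 weeks the difference was -0.93 ± 0.30 and did not pass (adjusted p = 0.12), and none of the 5 members passed, where 2.5% of all genes did. As the mean of both times Fabp1 fell by 1.32 on the log2 scale, with a standard error of 0.21 (limma, adjusted p = 0.00031), again 1 of 5 members beside 7.21% of all genes.

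Leaving out any 1 library kept the Fabp1 call at 2 weeks (adjusted p = 0.0031 to 0.023) and over both times (0.0002 to 0.0018). With the mitochondrial ribosomal RNA share of each library as a covariate the 2-week difference was -1.74 (adjusted p = 0.018). In a fit of the 2 groups of week 2 alone, with 6 libraries, it kept its size but did not pass (adjusted p = 0.063). The Fabp1 difference at 4 weeks minus that at 2 weeks, the interaction, was 0.78 ± 0.42 (adjusted p = 0.89), so the gap between fractions was not shown to differ between the times. No member passed the interaction in limma. Of all 17390 genes, 0 passed it and 5.68% had an unadjusted p under 0.05, with 0 genes passing in edgeR and 56 in DESeq2.

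Fabp1 also differed by time after injury. In MHCII-low cells at 2 weeks its mean was 2.43-fold below control, a log2 difference of -1.37 ± 0.34 (limma, adjusted p = 0.035). Fabp1 and Cd36 were the 2 of 5 members that passed against control at 2 weeks, beside 1.91% of all genes, and both were lower. At 4 weeks the Fabp1 difference from control was -0.09 with a 95% interval of -0.79 to 0.61, and none of the 5 members passed, beside 0.046% of all genes. Both comparisons use the same 2 control libraries.

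From 2 to 4 weeks Fabp1 rose 2.3-fold in MHCII-low cells (log2 1.27 ± 0.30, limma, adjusted p = 0.045) and 4.24-fold in MHCII-high cells (log2 2.05 ± 0.30, adjusted p = 0.0018). In MHCII-low cells it was the 1 member of 5 that passed, beside 0.857% of all genes. Fabp1 and Fabp5 passed in MHCII-high cells, 2 of 5 beside 1.07% of all genes. The 3 week-4 libraries lay above the 3 week-2 libraries in both fractions.

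The rise in MHCII-high cells passed whichever library was left out (adjusted p = 0.00089 to 0.02), but not in a fit of those 2 groups alone (0.13). The 2 results in MHCII-low cells were less stable. Against control at 2 weeks Fabp1 did not pass without control replicate 1 (adjusted p = 0.27), control replicate 3 (0.31), or 2-week MHCII-low replicate 2 (0.13) or 3 (0.13). It also missed the threshold there with the mitochondrial share as a covariate (0.12), with the GC trend removed (0.053), with no filter (0.068), in edgeR (0.050) and with the 2 groups alone (0.17). From 2 to 4 weeks the call in MHCII-low cells held without 2-week MHCII-low replicate 1 and was lost without any other of the 6 libraries (adjusted p = 0.097 to 0.25). It was also lost with no filter (0.13), in edgeR (0.069), with the mitochondrial share as a covariate (0.057), with the GC trend removed (0.062) and with the 2 groups alone (0.25).

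**Figure D2:**
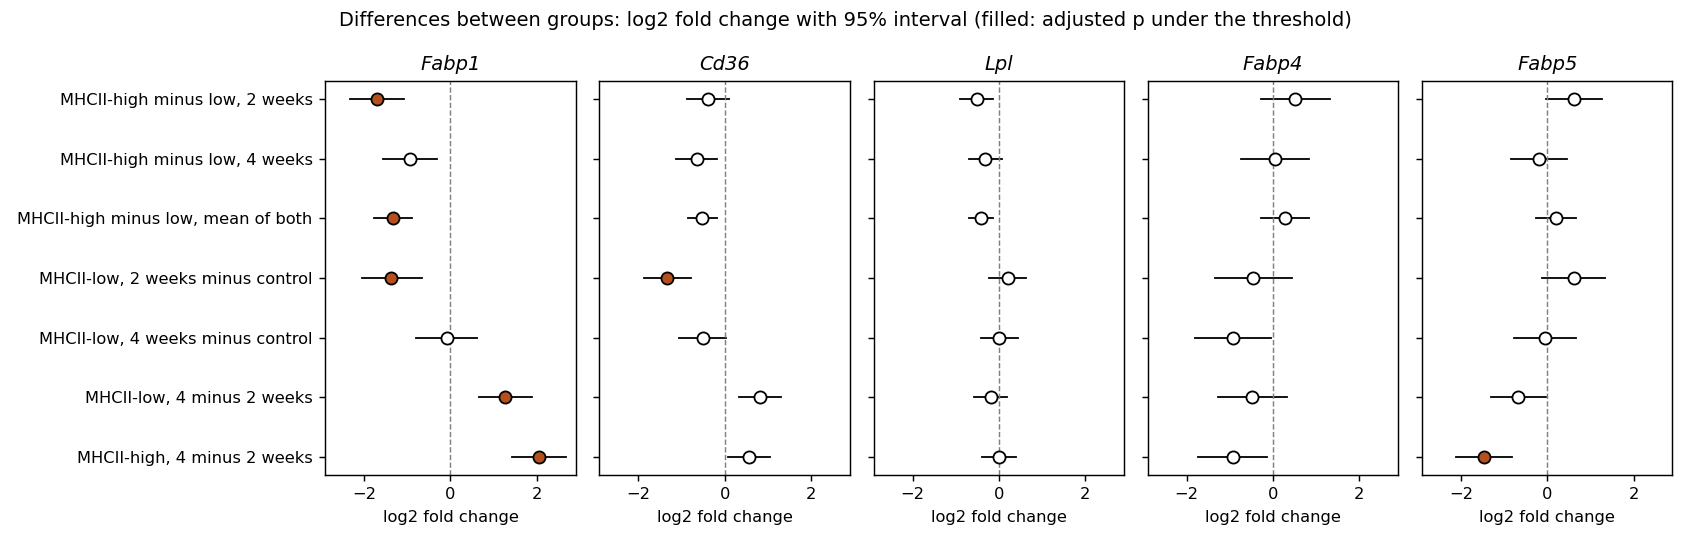
Log2 fold change of each gene (x axis) in 7 comparisons (y axis) with its 95% interval from limma; filled points passed an adjusted p of 0.05. Fabp1 has 5 of the 7 filled points, Cd36 has 1 (MHCII-low at 2 weeks against control) and Fabp5 has 1 (MHCII-high, week 4 against week 2).

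Fabp4 (chromosome 3, 10204088 to 10208576, reverse strand), the FABP of fat cells and of many macrophages, passed no test. The controls held 1590.1 and 1037.4 normalized counts. MHCII-low libraries held 1407.3, 764.3 and 754.9 at 2 weeks and 691.2, 584.3 and 747.4 at 4 weeks, the latter all below both controls. MHCII-high libraries held 1602.2, 1448.3 and 1019.1 at 2 weeks. The 4-week MHCII-high libraries spanned the widest range of any group, with 647.3, 335.8 and 1540.9.

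The difference of Fabp4 between fractions over both times was 0.28 with a 95% interval of -0.28 to 0.84 (limma). Against control, 4-week MHCII-low cells were lower by a log2 difference of -0.94 ± 0.43 (adjusted p = 0.79). In MHCII-high cells the change from week 2 to week 4 was -0.94 ± 0.38 (adjusted p = 0.26). Without the third 4-week MHCII-high library, the one that stands apart on the second principal component, it was -1.51 and passed (adjusted p = 0.018).

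Fabp5 (chromosome 3, 10012548 to 10016607, forward strand), the FABP first described in skin, fell in MHCII-high cells between weeks 2 and 4. The 2-week MHCII-high libraries held 1291.5, 2266.7 and 1154.6 normalized counts, and the 4-week MHCII-high libraries held 343.4, 494.2 and 936. The groups did not overlap, and the mean was 2.66-fold lower at 4 weeks (log2 -1.47 ± 0.31, limma, adjusted p = 0.024). The call was lost without 2-week MHCII-high replicate 1 (adjusted p = 0.056) or 2 (0.11) or without 4-week MHCII-high replicate 1 (0.078), and also with no filter (0.07) and with the 2 groups alone (0.29).

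In MHCII-low cells Fabp5 held 906.2, 910.8 and 1146.9 normalized counts at 2 weeks and 687.8, 676.5 and 506.4 at 4 weeks. The controls held 659.5 and 630.2, within the 4-week range and below all 2-week libraries. None of these differences passed: the log2 value was 0.61 ± 0.35 at 2 weeks against control (limma, adjusted p = 0.51) and -0.67 ± 0.31 from week 2 to week 4 (0.63). At 2 weeks all 3 MHCII-high libraries exceeded all 3 MHCII-low libraries (0.61 ± 0.31, adjusted p = 0.36).

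Fabp5 counts carry an uncertainty that the other 4 members do not share. Its mRNA has 5 near copies in the mouse annotation, all processed pseudogenes that match it at 90% identity or more over at least 200 bases. The closest, Gm6166, matches 409 of 987 bases at 98.3% identity and was counted at 24.1 to 156.9 normalized counts, or 3.0% to 16.4% of Fabp5 in the same library. How reads shared between them were assigned is not given in the sources used here. No near copy was found for Fabp1, Fabp4, Lpl or Cd36, and no annotated gene overlaps any of the 5.

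The makeup of the FABP pool put these patterns together. As a share of the summed per-kilobase level of Fabp1, Fabp4 and Fabp5, Fabp1 made up 51.3% and 59.4% in the controls. Its share was 29.6% to 39.3% in 2-week and 59.3% to 68.5% in 4-week MHCII-low libraries. In 2-week MHCII-high libraries it was 6.3% to 11.2%. The 2-week MHCII-high libraries were thus mostly Fabp4 (38.7% to 51.3%) and Fabp5 (37.5% to 55.0%). At 4 weeks the MHCII-high libraries differed among themselves, with Fabp1 shares of 53.3%, 67.3% and 26.3%, the last in the library that stands apart. These shares restate the levels above and were not tested. They rest on the mRNA lengths, and with the deposited exon lengths the share of Fabp1 would be larger in every library.

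**Figure D3:**
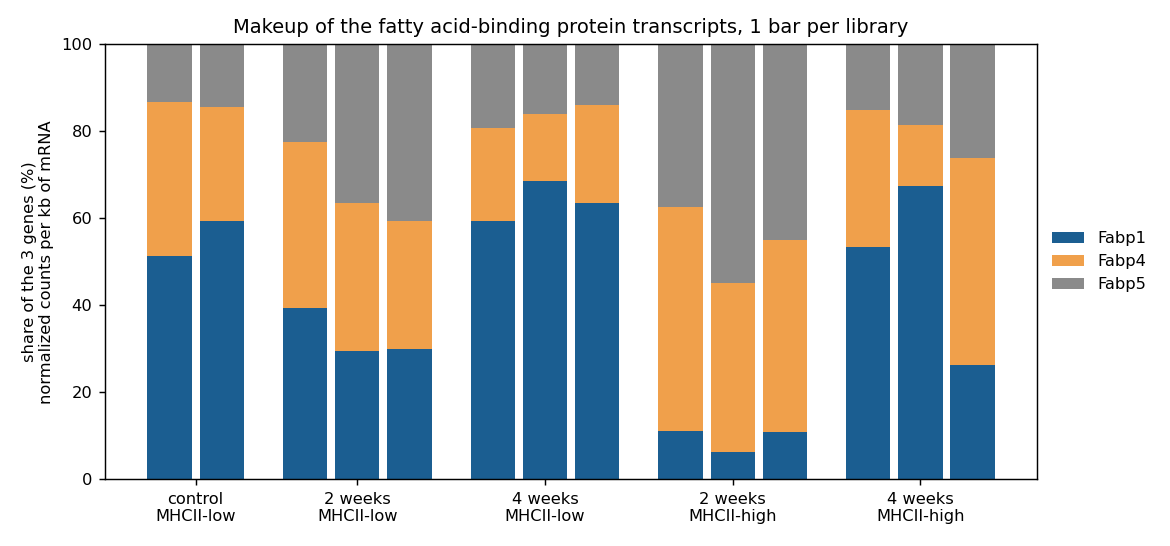
Share (%) of Fabp1, Fabp4 and Fabp5 in their summed normalized counts per kilobase of mRNA, with 1 bar per library in 5 groups. Fabp1 takes over 50% in both controls (51.3% and 59.4%) and 6.3% to 11.2% in the 2-week MHCII-high libraries.

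Counting groups that do not overlap, 3 of 5 members (Fabp1, Lpl and Fabp5) were separated between fractions at 2 weeks and 3 of 5 (Fabp1, Lpl and Cd36) at 4 weeks. All genes gave 21.1% and 16.4%. Against control, 3 of 5 members were separated at 2 weeks (Fabp1, Cd36 and Fabp5), where 35.3% of all genes were, and 2 of 5 at 4 weeks (Fabp4 and Cd36), where 27.4% were. From week 2 to week 4, 4 of 5 were separated in MHCII-low cells (all but Lpl) beside 14% of all genes, and 2 of 5 in MHCII-high cells (Fabp1 and Fabp5) beside 15%.

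Across the 14 libraries Fabp1 and Cd36 ran most alike among the members, with a Pearson r of 0.84 on the log2 scale. Fabp1 and Fabp5 ran opposite, with r = -0.76. These values describe libraries that fall into 5 groups and differ in depth, so they carry no test. Among 10398 genes of moderate or high level, those close to Fabp1 included Coro6 and Rras2 (r = 0.94 each). For Cd36 they were Zfp827 (0.90), Cd69 (0.88) and Vrk1 (0.87), and for Lpl they were Gorasp2 (0.93), Psme3 (0.92) and Cdc40 (0.92). Smurf1 (0.92), Idnk (0.90) and Gm9821 (0.89) were closest to Fabp5. No gene ran as close to Fabp4, whose nearest were 1500015A07Rik (0.83), Arhgap29 (0.82) and H3f3a (0.82).

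Other genes of fatty acid handling were read in 7 lists with 78 genes, of which 65 had enough counts to be tested. In MHCII-low cells at 2 weeks against control, 6 of these 65 rose and 0 fell (9.23%, beside 1.48% of all genes that rose). The median log2 difference of the 65 was 0.27, beside -0.09 over all genes. Over both times, 7 of the 65 fell in MHCII-high against MHCII-low cells and 0 rose (10.8%, beside 2.21% of all genes that fell), with a median of -0.27 beside 0.02. At single times 2 fell at 2 weeks (3.08%, beside 0.581%) and 1 at 4 weeks (1.54%, beside 0.535%). From week 2 to week 4, 4 fell in MHCII-low cells (6.15%, beside 0.748%) and 2 in MHCII-high cells (3.08%, beside 0.759%), with 0 rising in either. Slc27a6, counted among those of MHCII-high cells, had enough counts to be tested only through libraries of week 2. None passed at 4 weeks against control or in the interaction.

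Of 7 other FABP genes only Fabp7, the FABP first described in brain, had enough counts to be tested. Fabp7 held 0 and 7.8 normalized counts in the controls, and 86.0, 201.4 and 212.5 in 2-week MHCII-low libraries in order of level. That rise was 5.71 ± 1.03 on the log2 scale (limma, adjusted p = 0.0028), and did not pass without control replicate 3 (4.14, adjusted p = 0.14). At 4 weeks MHCII-low libraries held 7.7 to 19.2, and MHCII-high libraries held 43.4 to 205.0 at 2 weeks and 15.7 to 45.8 at 4 weeks. Fabp2, Fabp6 and Pmp2 were at 0 in every library, and Fabp3, Fabp9 and Fabp12 never passed 5.1 normalized counts.

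Among genes of fatty acid transport and activation, 2 of 11 tested rose in MHCII-low cells at 2 weeks against control. Acsl3, which couples fatty acids to coenzyme A, went from 92.8 ± 54.5 (SD, n = 2) to 578 ± 78.7 normalized counts (SD, n = 3), a log2 difference of 2.75 ± 0.53 (limma, adjusted p = 0.0052). Cav1, the caveolar coat protein, went from 7081 ± 1074 to 16808 ± 1708 (1.25 ± 0.22, adjusted p = 0.0027). Both fell again from week 2 to week 4, by 2.73 and 0.90 on the log2 scale. The Acsl3 rise did not pass without control replicate 3 (2.12, adjusted p = 0.20), nor that of Cav1 without control replicate 1 (1.09, 0.094), and the fall of Cav1 was lost without any of 4 libraries, to 0.66 without 4-week MHCII-low replicate 1 (adjusted p = 0.20). At 2 weeks against control the 2 genes thus moved opposite to Fabp1 and Cd36.

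Slc27a6, a fatty acid transport protein, was listed at 0 in all 3 MHCII-high libraries of week 4 and at 12.3 to 93.6 normalized counts in those of week 2. Against a floor of 3 reads per library it was at least 9.87-fold lower at 4 weeks. The log2 difference was -5.20 (limma, adjusted p = 0.027). Only libraries of week 2 reached the filter of 10 normalized counts. The gene was thus tested only because it was high at week 2, and its p-value is no separate support for a fall. Without 2-week MHCII-high replicate 1, which held 93.6 normalized counts, that bound was 5.19-fold and the call was lost (adjusted p = 0.13). The call was also lost without replicate 3 (0.081), in edgeR (0.099) and in a limma fit of the 2 groups alone (0.18).

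Of 8 receptors for lipoproteins and modified lipids, 3 rose in MHCII-low cells at 2 weeks against control and 0 fell. Msr1, a scavenger receptor of macrophages, rose from 4956 ± 916 to 16220 ± 4688 normalized counts (log2 1.68 ± 0.25, limma, adjusted p = 0.00035). Scarb1, a receptor for high-density lipoprotein, was added after its value was seen (1.15 ± 0.23, adjusted p = 0.0075, and 0.77 with 0.37 without control replicate 3). All 8 receptors had a positive difference, with a median of 0.81. Msr1 fell from week 2 to week 4 by 1.39 on the log2 scale, to 6173 ± 1752 (adjusted p = 0.0014, and 0.20 with the 2 groups alone). In a fit of only the 2 groups compared, the rises against control of Msr1 (0.097), Scarb1 (0.16), Acsl3 (0.081), Cav1 (0.074) and Fabp7 (0.11) did not pass. Msr1 also fell in MHCII-high cells over that time, by 1.19 (adjusted p = 0.011), which did not pass without 2-week MHCII-high replicate 3 (-1.04, 0.074), with no filter on low values (0.051) or in a fit of the 2 groups alone (0.10).

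None of the 6 tested regulators of LPL passed in any comparison. Angptl4, which inactivates LPL, was closest between fractions, at -0.49 ± 0.18 over both times (limma, adjusted p = 0.11). Gpihbp1, the protein that holds LPL on capillary endothelium, was at most 42.9 normalized counts in any library.

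In the list of PPAR receptors and their partners 1 of 10 tested genes passed. Pparg was lower in MHCII-high cells over both times, by a log2 difference of -0.37 ± 0.10 (limma, adjusted p = 0.027). It held 5685 ± 221 and 7983 ± 939 normalized counts in MHCII-high cells at 2 and 4 weeks, beside 8005 ± 612 and 9498 ± 161 in MHCII-low cells (SD, n = 3 each). Leaving out any 1 of 6 of the 12 libraries ended that call (adjusted p = 0.051 to 0.069). Against control at 2 weeks Pparg did not pass, with a difference of 0.28 ± 0.16 (adjusted p = 0.50). Transcript level is not receptor activity, and a link between Pparg and the levels of the members was not tested.

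Some genes of intracellular lipolysis and beta-oxidation, which free and burn stored fatty acids, fell in MHCII-high cells. Pnpla2, the triglyceride lipase ATGL, fell by 0.67 over both times (standard error 0.13, limma, adjusted p = 0.0020) and its activator Abhd5 by 0.52 (0.10, 0.0014), 2 of 8 in their list. Of 21 beta-oxidation genes 3 fell and 0 rose. Hadha, a subunit of the trifunctional protein, fell by 0.51 (0.10, adjusted p = 0.0031), and Etfb, an electron carrier of the pathway, by 0.91 (0.18, 0.0033). Acadl, the long-chain acyl-CoA dehydrogenase, is the third and was added after its value was seen (-0.91 ± 0.25, 0.032). Of the 21 genes 19 had a negative difference (18 with DESeq2, with the GC trend removed or with the mitochondrial share as a covariate), with a median of -0.33 beside 0.02 for all genes.

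Single-time calls in these lists were fewer. Hadha fell by 0.62 and Abhd5 by 0.60 at 2 weeks, and Pnpla2 by 0.69 at 4 weeks. Each was lost when single libraries were left out, and Pnpla2 then reached 0.46 without 4-week MHCII-low replicate 1 (adjusted p = 0.24). The means over both times of Hadha, Etfb, Pnpla2 and Abhd5 passed whichever library was left out. With the mitochondrial ribosomal RNA share as a covariate Abhd5 still passed, while Hadha (adjusted p = 0.10), Etfb (0.11), Pnpla2 (0.086), Acadl (0.23), Lsr (0.36) and Pparg (0.15) did not. Those of Acadl and of the lipolysis-stimulated receptor Lsr (-0.53 ± 0.15, adjusted p = 0.040) were each lost for 8 of 12 libraries.

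**Figure D4:**
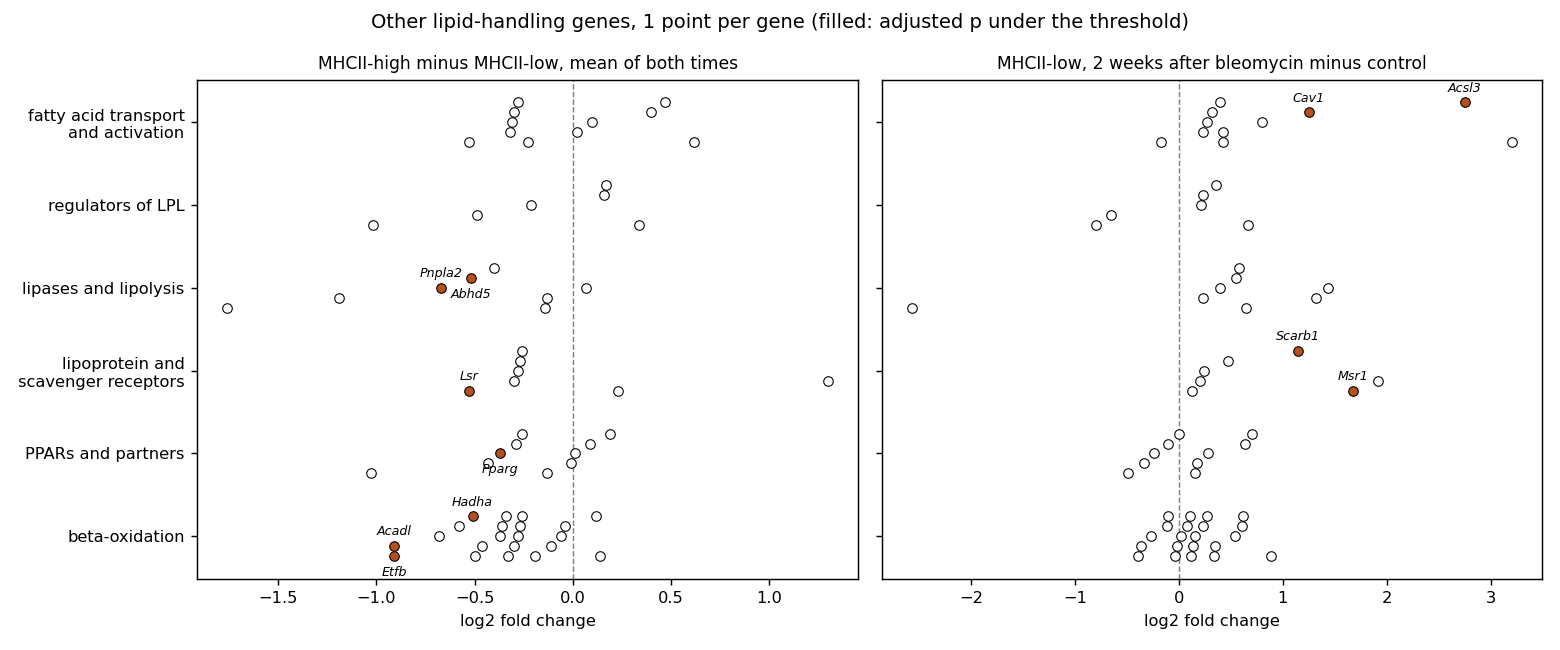
Log2 fold change (x axis) of tested genes in 6 lists (y axis, 1 point per gene) for MHCII-high minus MHCII-low cells over both times (left) and MHCII-low cells 2 weeks after bleomycin minus control (right); filled points passed an adjusted p of 0.05 and are named. The filled points are negative on the left, such as Acadl at -0.91, and positive on the right, such as Acsl3 at 2.75. Fabp7 and 1 further gene are not drawn.

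Markers of other cells moved with the same comparisons. Over both times 7 of 8 monocyte-derived macrophage markers were called higher in MHCII-high than in MHCII-low cells (870 of all 17390 genes were). Their summed level was 1089 to 1765 normalized counts in controls, 3581 to 6137 and 1176 to 1721 in MHCII-low libraries of weeks 2 and 4, and 32256 to 42840 and 15479 to 16718 in MHCII-high libraries. None of the 8 was at 0 in a whole group. In MHCII-low cells at 2 weeks 5 of the 8 were called higher than in controls, beside 1.48% of all genes. Among the 5 was C1qb (log2 5.41 ± 0.79, limma, adjusted p = 0.00031), which encodes a chain of the complement component C1q. Of the 8 alveolar macrophage markers 5 were called lower in MHCII-high cells over both times and 0 higher, beside 2.21% of all genes called lower. Among these 5 was Siglecf (-0.99 ± 0.11, limma, adjusted p = 2.7e-06).

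The monocyte-derived sum was highest in the 2-week MHCII-high libraries, where Fabp1 was lowest. The sum was higher in 4-week MHCII-high than in 2-week MHCII-low libraries, and the Fabp1 levels of these groups overlapped. These groups differ in both time and fraction. In bulk samples fewer cells of a type and less RNA per cell cannot be told apart, and the part of cell composition in the lipid gene results was not tested.

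B cell markers (5 of 5 called higher in MHCII-high cells over both times) summed to 261 to 895 normalized counts in MHCII-high and 4.3 to 60 in MHCII-low and control libraries, where Pax5 was at 0 in the controls and in 4-week MHCII-low cells. Dendritic cell markers (3 of 5 called higher) summed to 628 to 1285 in MHCII-high and 76.7 to 250 in the other libraries. Pax5, Cd79b and the dendritic cell marker Flt3 reached the filter of 10 normalized counts in 2 libraries only through MHCII-high libraries. They were thus tested only because they were high there, and their p-values are no separate support. Over all 17390 genes, 870 were called higher in MHCII-high cells over both times. Type 2 alveolar cell markers (3 of 6 called higher) summed to 7921 to 12860 in MHCII-high and 4890 to 9065 in the others. Most of the control sum came from Abca3, with means of 4062 in controls and 4665 and 4719 in MHCII-high cells of weeks 2 and 4. Sftpc had means of 104 in controls, 1047 and 348 in MHCII-low cells, and 3868 and 3422 in MHCII-high cells of those weeks. Neutrophil markers had no call between fractions, and summed to 3608 to 5150 in 2-week MHCII-low libraries against 696 to 1321 in controls. That sum rested on Cxcr2, while Ly6g was at 0 in 4-week MHCII-low and 2-week MHCII-high libraries.

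Fat cells also express Cd36, Fabp4 and Lpl, and endothelium expresses Cd36 and Fabp4. The 7 endothelial markers had no call between fractions over both times, and summed to 1767 to 6867 normalized counts with most of it from Vwf. Of the adipocyte markers, Lep was at 0 everywhere, Adipoq was at 0 outside the 2-week MHCII-low group (at most 11.1 there) and Cidea was at most 5.2. Cidec, which coats lipid droplets, made up nearly all of that list's sum of 1729 to 12777 and was lower in MHCII-high cells (-1.44 ± 0.16, limma, adjusted p = 4.9e-06). Fibroblast markers summed to 21.9 to 861 with no call between fractions. In MHCII-low cells at 2 weeks against control, 1 marker was called higher in each of 4 lists, beside 1.48% of all genes. These were Vwf (log2 1.10 ± 0.25), Sftpc (3.47 ± 0.59), Cxcr2 (2.36 ± 0.41) and the alveolar macrophage gene Car4 (1.06 ± 0.21). Other markers of each list went the other way. Endothelial markers had 3 positive and 4 negative differences (median -0.14), and type 2 markers had 4 and 2. Tested neutrophil markers had 3 and 1, and alveolar macrophage markers 7 and 1.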

How the data were processed

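RNA-seq values of 14 libraries were taken from 1 deposited table. Per the file headers they are normalized counts, a signal the authors made by scaling gene counts, and the table also gives each gene's GC percent (deposited as such) and exon length. The submitters' processing notes name STAR, DESeq2 and the build mm10 without role or version; neither the counting program nor the annotation release is given in the sources used here. Values were whole multiples of 1 read's worth, within the rounding of 0.05, for 99.97% to 100% of values per library. In control replicate 1 a read is worth 0.3895 normalized counts, so its recovered reads are less exact. Raw counts would have been tested with edgeR. For normalized values the design named limma 3.58.1 (R 4.3.3) on log2(value + 1), with its trend option for the variance, and it was fitted to the 17390 genes that reached 10 normalized counts in 2 or more libraries. All 14 libraries entered 1 fit with 5 groups, and Benjamini-Hochberg adjustment ran over all genes of a comparison. Where no tool is named, an adjusted p comes from limma. Errors of log2 fold changes are standard errors, and those of levels are SDs. The fit was also run on simulated counts, drawn independently for each library around 1 mean per gene. Those counts did not copy the mitochondrial share or cell makeup of the libraries, so that run is no support for the results here.

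Alternatives were a pseudocount of 0.5, no filter, TMM factors, edgeR 4.0.16 and DESeq2 1.42.0 on recovered reads, the mitochondrial ribosomal RNA share as a covariate, removal of a GC trend, replicate numbers as a block, only the groups compared, and leaving out each library. Near copies were sought with BLAST 2.17.0 among GENCODE transcripts; positions are those of the deposited table. Promoter sequences are from RefSeq (GRCm38.p6).

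The members, lists and tests were chosen with earlier results of these data known. Named were the 5 members, up to 2 genes with the smallest p per list, the 3 genes most like each member with a mean log2 level of at least 6, and marker genes beside a result. Some genes that meet this rule are not reported here. The lists were other FABPs, fatty acid transport and activation, regulators of LPL, lipases and lipolysis, lipoprotein and scavenger receptors, PPAR receptors and partners, beta-oxidation, and the cell type markers given in the text.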

Additional observations from a re-analysis of the deposited data

How the results depend on the processing

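Of the 40 differences of members, 7 passed the threshold. Under 360 alternative values other than leaving out a library, 325 kept direction and side of the threshold, 15 lost the call, 15 gained one and 5 changed sign. Over 290 values with 1 library left out these were 258, 13, 5 and 14.

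The number of members called between fractions at 2 weeks (1) was 2 with DESeq2 and 0 with only the groups compared. At 4 weeks (0) it was 1 with the GC trend removed and 1 with the replicate block. Over both times (1) it was 3 with TMM factors, edgeR, DESeq2, the GC trend removed or the replicate block, 2 with only the groups compared, and 1 to 3 without single libraries. At 2 weeks against control (2) it was 1 with no filter, edgeR, the mitochondrial covariate or the GC trend removed, 0 with only the groups compared, and 0 to 2 without single libraries. From week 2 to 4 in MHCII-low cells (1) it was 0 with no filter, edgeR, the mitochondrial covariate, the GC trend removed or only the groups compared, 2 with the replicate block, and 0 to 1 without single libraries. In MHCII-high cells (2) it was 1 with no filter, 0 with only the groups compared, and 1 to 3 without single libraries.

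Signs changed for small differences. Fabp4 between fractions at 4 weeks was -0.01 with TMM factors, and -0.52 to 0.57 without single libraries. Fabp5 at 4 weeks against control was 0.11 with the mitochondrial covariate (-0.14 to 0.08 without single libraries). Lpl at 4 weeks against control was -0.0025 with DESeq2 (-0.28 to 0.31), and from week 2 to 4 in MHCII-high cells -0.01 with TMM factors and -0.01 with edgeR (-0.06 to 0.07). Without single libraries the range also crossed 0 for Fabp5 between fractions at 4 weeks (-0.58 to 0.14), Fabp4 over both times (-0.01 to 0.54), Lpl at 2 weeks against control (-0.09 to 0.50), Fabp1 at 4 weeks against control (-0.22 to 0.0014) and the interactions of Fabp4 (-1.04 to 0.06) and Cd36 (-0.47 to 0.05). The cause was not tested, except that a fit of only the groups compared has fewer libraries.

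Same-numbered libraries of both fractions correlated at 0.009 to 0.107 in their deviations from the group means. Differently numbered ones correlated at -0.124 to 0.077, most of them not above 0. At 2 weeks MHCII-high replicate 2 correlated better with MHCII-low replicate 3 (0.077) than with replicate 2 (0.068). Deviations from means of 3 libraries must balance, so these small values cannot decide whether the numbers mark pairs. The labels do not say, and the main fit did not take the numbers as pairs. The replicate block changed 4 calls of members: Cd36 at 4 weeks (adjusted p = 0.043), Cd36 (0.0094) and Lpl (0.028) over both times, and Cd36 from week 2 to 4 in MHCII-low cells (0.034).

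Genes called over the whole table were 499 between fractions at 2 weeks (207 to 1055 over the alternatives), 434 at 4 weeks (56 to 898), 1254 over both times (500 to 2122), 332 at 2 weeks against control (36 to 660), 8 at 4 weeks (0 to 77), 149 from week 2 to 4 in MHCII-low cells (15 to 322) and 186 in MHCII-high cells (0 to 638). The share of higher calls over both times was 69.4%, or 54.7% with TMM factors. At 2 weeks it was 79.8%, or 64.3% with the GC trend removed, and from week 2 to 4 in MHCII-high cells 29%, or 48.3%. Removing the GC trend moved the median of all genes at 2 weeks against control from -0.086 to 0.052 and for the interaction from -0.065 to 0.050. The shallowest library holds 15106415 reads, and the lowest count of any member, 165 reads of Fabp5, came from it.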
